A study of Mus musculus with 8 samples.

Results

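The blood-testis barrier junction genes are 8 genes whose proteins build the junctions between neighbouring Sertoli cells: Cldn11, Cldn3, Cldn5, Ocln, F11r, Tjp1, Gja1 and Cdh2. They were taken by name from a list of barrier proteins, with earlier results of these data known. All 8 were found among the 54087 genes of each library. RNA came from whole testes of male C57BL/6 mice with the genotype Dnmt3A WT/WT (WT) or Dnmt3A KO/KO (KO), collected 19 or 25 days post partum (dpp), in 4 groups of 2 libraries. The DNA methyltransferase DNMT3A places methyl groups on previously unmethylated DNA, for example in male germ cells before birth. The labels leave unsaid what the KO allele lacks, in which cells it was lost, and whether the 2 libraries of a group came from separate animals. P-values therefore measure only the spread between these libraries, which may be technical.

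Sertoli cells are the supporting cells of the seminiferous tubule. Near the base of the tubule they are joined to each other by tight junctions, which seal the space between cells, together with gap junctions, desmosomes and an actin-rich adherens junction called the basal ectoplasmic specialization. This barrier separates spermatogonia and the youngest spermatocytes from the older meiotic cells and spermatids, and in the mouse it forms as the first germ cells reach the pachytene stage of meiosis. Claudins and occludin are the membrane proteins of the tight junction, F11r is an adhesion molecule beside them, Tjp1 is a scaffold that ties them to actin, Gja1 forms gap junction channels and Cdh2 is the cadherin of the adherens junction. Several of these genes are not restricted to Sertoli cells: Cldn5 is also a main claudin of blood vessels, and Gja1, Cdh2, Tjp1 and F11r are made by several testis cell types.

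DNMT3A acts on cytosines that are followed by guanine (CG), so the 250 bases before the annotated start are printed here for 4 members. They are 3 that rose in KO at both ages and have no annotated exon in the window, and Cldn3, which did not rise. The window of F11r, which also rose at both ages, overlaps 2 annotated exon records and is not printed. The sequences are from RefSeq (GRCm38.p6, the assembly of mm10), 5′ to 3′ on the gene's own strand, with every CG in capitals. No methylation was measured in these libraries.
Cldn11, chr3:31149670-31149919, plus strand: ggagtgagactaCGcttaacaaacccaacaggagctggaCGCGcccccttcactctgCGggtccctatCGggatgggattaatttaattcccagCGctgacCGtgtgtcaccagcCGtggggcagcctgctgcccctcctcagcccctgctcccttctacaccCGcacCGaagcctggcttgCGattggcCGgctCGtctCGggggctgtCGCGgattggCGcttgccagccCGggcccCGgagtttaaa
Ocln, chr13:100552719-100552968, minus strand: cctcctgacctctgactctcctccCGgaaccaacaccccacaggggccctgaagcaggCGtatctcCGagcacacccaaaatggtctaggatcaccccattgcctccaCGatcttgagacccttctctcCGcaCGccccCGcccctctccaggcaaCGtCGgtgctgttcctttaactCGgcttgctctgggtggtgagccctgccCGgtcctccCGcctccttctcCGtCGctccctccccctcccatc
Gja1, chr10:56377050-56377299, plus strand: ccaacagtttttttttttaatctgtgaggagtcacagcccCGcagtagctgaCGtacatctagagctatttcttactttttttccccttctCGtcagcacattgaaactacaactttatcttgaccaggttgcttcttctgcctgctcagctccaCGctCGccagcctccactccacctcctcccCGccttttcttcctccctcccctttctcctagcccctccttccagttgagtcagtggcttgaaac
Cldn3, chr5:134985964-134986213, plus strand: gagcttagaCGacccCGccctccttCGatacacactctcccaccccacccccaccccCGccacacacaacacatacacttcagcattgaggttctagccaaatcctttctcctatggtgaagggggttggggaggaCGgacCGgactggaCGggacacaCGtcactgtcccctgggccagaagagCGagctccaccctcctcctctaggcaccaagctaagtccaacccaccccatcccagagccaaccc
The Cldn11 window holds 19 CG, that of Ocln 14, that of Cldn3 9 and that of Gja1 6. Over 32851 mouse promoter windows of the same length the median was 6 CG, with quartiles of 2 and 16. RefSeq windows were matched for 7 of the 8 members. Among the other members, those of Cldn5, F11r and Tjp1 hold 12, 17 and 22 CG. The Tjp1 window, chr7:65371245-65371494, lies inside the span that GENCODE gives this gene, so it precedes an internal start. Ocln has 2 annotated starts in the table and the first is shown. The motif GGGCGG, read on both strands, stood in the windows of Cldn3, Cldn5, Ocln and F11r 1 time each and in that of Tjp1 2 times, and it was found in 32.7% of all windows. AGATAA was found 1 time in the Gja1 window and in 9.99% of all windows. AGAACA (16.1% of all windows) and AACAAT (9.42%) were in none of the 7. Of the 4 members that rose at both ages, Ocln and F11r thus held GGGCGG and Cldn11 and Gja1 did not.

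Levels are given as CPM, the counts relative to a library size corrected with TMM factors, which set the bulk of genes to the same level in every library. Gene totals ranged from 22515812 to 50445334 counts. Cldn3 had 44 to 170 counts per library and Cldn5 230 to 516, while each of the other 6 members had at least 690, so differences of Cldn3 are the least precise. Dnmt3a itself measured 147 and 141 CPM in WT against 114 and 112 CPM in KO at 19 dpp, and at 25 dpp 48.7 and 70.0 CPM in WT against 76.8 and 67.2 CPM in KO. The log2 difference of Dnmt3a, KO minus WT, was −0.35 (edgeR adjusted p = 0.201) at 19 dpp and 0.28 (adjusted p = 0.204) at 25 dpp, and counts over the whole gene cannot check a deletion of part of it.

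**Figure D1:**
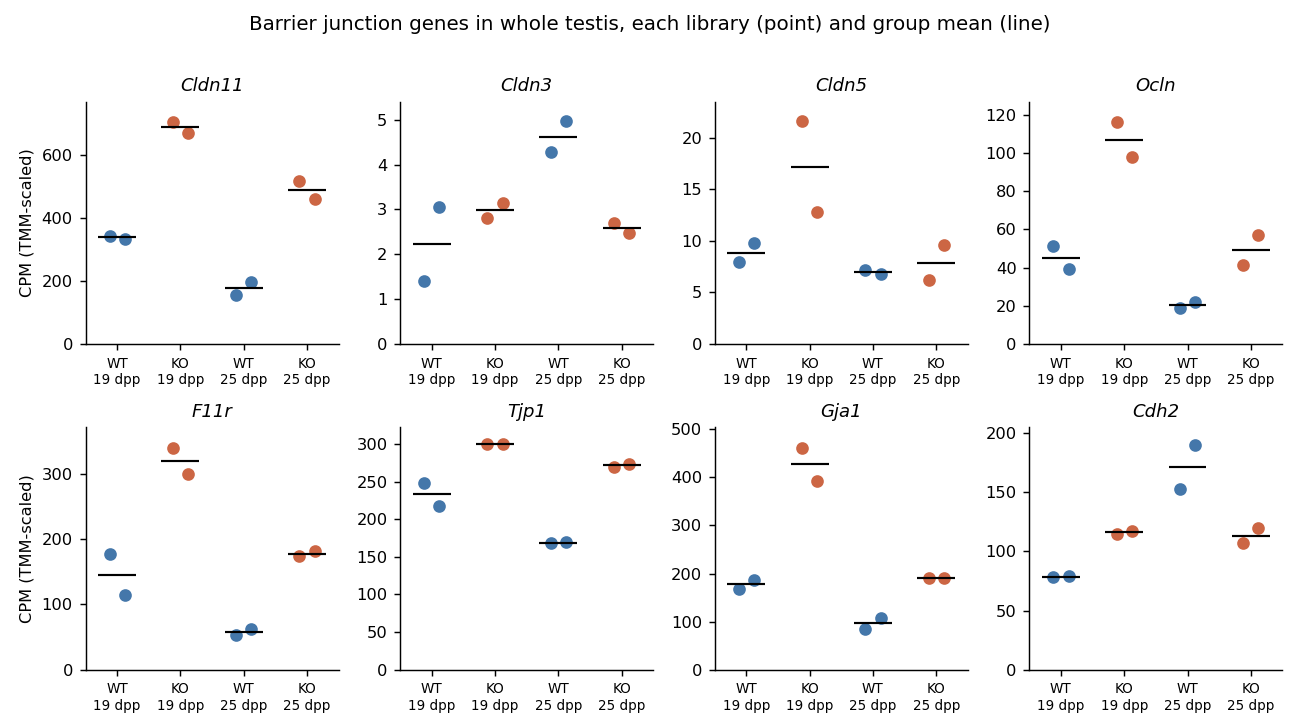
Level of each of the 8 junction genes in CPM (vertical axes, linear, each starting at 0) in WT (blue) and KO (orange) testes at 19 and 25 dpp; points are libraries, 2 per group, and lines are group means. Cldn11, Ocln, F11r, Tjp1 and Gja1 have both KO points above both WT points at each age, while Cldn3 and Cdh2 are highest in WT at 25 dpp.

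Cldn11, Ocln, F11r and Gja1 rose in KO testes at both ages and fell from 19 to 25 dpp in WT. Cdh2 rose in KO at 19 dpp and fell at 25 dpp, and Cdh2 and Cldn3 rose with age in WT. In what follows a gene rose or fell where the quasi-likelihood test of edgeR gave an adjusted p (Benjamini-Hochberg over 23353 genes) under 0.05, differences are log2 fold changes, and SE is their standard error. Of the 8 members 5 rose in KO at 19 dpp (Cldn11, Ocln, F11r, Gja1, Cdh2) and none fell, where 8.8% of all genes tested rose and 13.2% fell. The median of the 8 differences was 0.99, against 0 over all genes. At 25 dpp 5 rose (Cldn11, Ocln, F11r, Tjp1, Gja1) and Cdh2 fell, where 26.1% of genes rose and 37.4% fell, and the medians were 0.83 and −0.12. From 19 to 25 dpp in WT, 5 fell (Cldn11, Ocln, F11r, Tjp1, Gja1) and Cldn3 and Cdh2 rose, where 25.4% of genes fell and 34.9% rose. In KO 3 fell with age (Ocln, F11r, Gja1) and none rose, where 8.87% fell and 10.2% rose. Both KO libraries were above both WT libraries for 7 members at 19 dpp and below for 0, where this held for 32.7% and 33.8% of all genes, and for 5 and 2 members at 25 dpp (38.5% and 46.1%). From 19 to 25 dpp both older libraries were above both younger ones for 2 members and below for 6 in WT (43.4% and 40.3% of genes), and for 0 and 7 in KO (33.3% and 32.2%). The comparison of genotypes at 25 dpp and that of ages in WT share the WT libraries at 25 dpp. Without replicate 1 of KO at 19 dpp, 1 library is left in that group. Both edgeR and limma-voom then lost every call at that age, over all genes, while DESeq2 still called the same 5 members. The edgeR values of the 5 were then 0.58 to 1.15, against 0.56 to 1.27 with all libraries. Without replicate 2 of WT at 19 dpp fewer members were called, and the values of the 5 were 0.56 to 1.35.

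**Figure D2:**
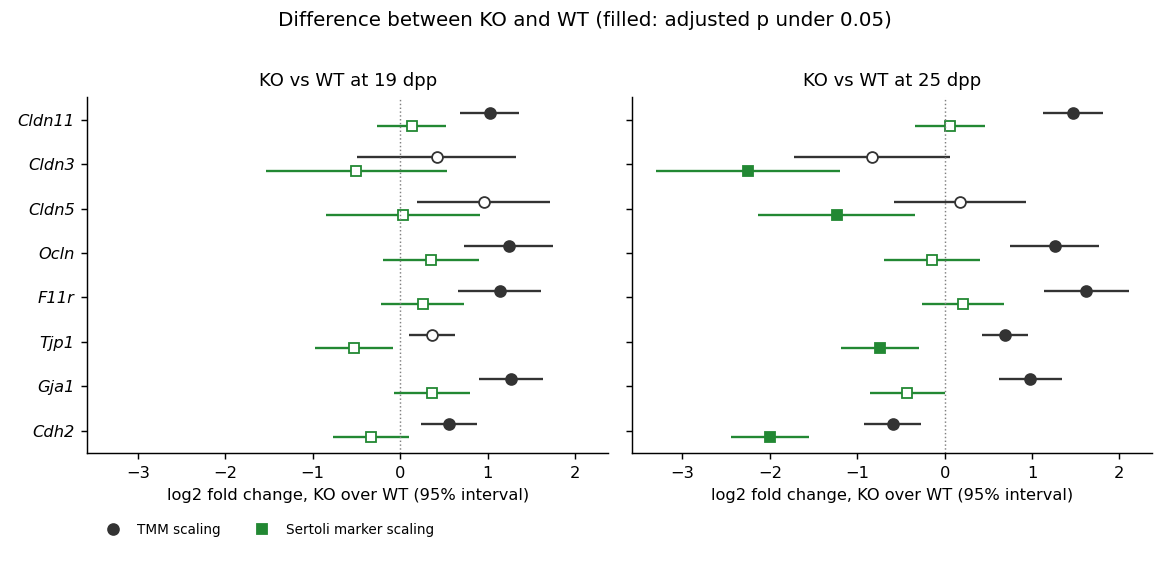
Log2 fold change of KO over WT (horizontal axis) with its 95% interval for each member at 19 dpp (left) and 25 dpp (right), with libraries scaled by TMM (black circles) or to the summed Sertoli markers (green squares); filled symbols have an edgeR adjusted p under 0.05. The TMM values of Cldn11, Ocln, F11r and Gja1 lie near or above 1 at both ages, while under the marker scaling no value is called higher.

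The summed level of 20 Sertoli cell markers, all detected in every library, moved with most members. It was 5638 and 4962 CPM in WT against 10360.4 and 9319 CPM in KO at 19 dpp, and 2534 and 3206 CPM in WT against 8067 and 7202 CPM in KO at 25 dpp. Of the 20 markers 16 rose in KO at 19 dpp and 17 at 25 dpp, with medians of 0.95 and 1.2. Over all genes 8.8% and 26.1% rose. In bulk tissue, fewer cells of a type and less RNA per cell cannot be told apart.

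Claudin 11 (Cldn11, chromosome 3, 31149920 to 31164324, plus strand) is the main claudin of Sertoli cells, and mice without it lack their tight junction strands. It had 345 and 333 CPM in WT against 707 and 673 CPM in KO at 19 dpp. At 25 dpp the values were 155 and 199 CPM in WT against 518 and 462 CPM in KO. Both KO libraries were above both WT libraries at each age, and in each genotype the older libraries were the lower ones. The level in KO was 2.04-fold that in WT at 19 dpp (log2 1.03, SE 0.146, edgeR adjusted p = 0.00768) and 2.77-fold at 25 dpp (log2 1.47, SE 0.148, adjusted p = 3.51e-04). From 19 to 25 dpp it fell by 0.94 on the log2 scale in WT (SE 0.146, adjusted p = 0.00182). The value for KO was −0.49 (SE 0.145, adjusted p = 0.0515), which missed the threshold of 0.05 and passed it with DESeq2 (adjusted p = 0.00893).

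Claudin 3 (Cldn3, chromosome 5, 134986214 to 134987472, plus strand) is a claudin of newly made Sertoli junctions that responds to androgen. Its levels at 19 dpp were low, with 1.41 and 3.05 CPM in WT against 2.81 and 3.15 CPM in KO. At 25 dpp the values were 4.28 and 4.97 CPM in WT against 2.7 and 2.48 CPM in KO. The WT libraries at 25 dpp were thus the highest of all, and the genotypes overlapped only at 19 dpp. The rise with age in WT was 1.05 (log2, SE 0.388, adjusted p = 0.0470), and it missed the threshold when any library other than replicate 2 of WT at 19 dpp was left out (adjusted p = 0.072 to 0.213). It also missed it with libraries scaled to total counts (log2 0.54, adjusted p = 0.237), with no filter on low counts (adjusted p = 0.0545) and in a fit of the WT libraries alone (adjusted p = 0.114). KO against WT gave 0.42 at 19 dpp (95% interval −0.49 to 1.32, adjusted p = 0.490) and −0.83 at 25 dpp (95% interval −1.73 to 0.06, adjusted p = 0.0924). DESeq2 called the second value (log2 −0.93, adjusted p = 0.0349), as did edgeR without either WT library at 19 dpp (adjusted p = 0.0417 and 0.0432). The exons of Cldn3 overlap those of the antisense gene Wbscr25, and the strand setting of the counting is not given in the sources used here, so reads of the pair cannot be told apart in the shared part. Wbscr25 had 1720 and 278 counts in the WT libraries at 25 dpp, against 157 and 170 for Cldn3, and 12 or fewer in every other library.

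Claudin 5 (Cldn5, chromosome 16, 18776847 to 18778262, plus strand) is made by both Sertoli and endothelial cells. It measured 7.93 and 9.77 CPM in WT against 21.6 and 12.8 CPM in KO at 19 dpp. At 25 dpp the values were 7.17 and 6.79 CPM in WT against 6.22 and 9.58 CPM in KO, where the groups overlapped. Replicate 1 of KO at 19 dpp stood apart from the other libraries. Cldn5 was called in none of the comparisons: KO against WT gave 0.96 at 19 dpp (95% interval 0.20 to 1.71, adjusted p = 0.0734) and 0.18 at 25 dpp (95% interval −0.58 to 0.94, adjusted p = 0.656). The first passed the threshold with DESeq2 (adjusted p = 0.0136) and with no filter on low counts (adjusted p = 0.0421). Without replicate 1 of KO it was 0.53 (adjusted p = 0.452). The change with age in KO was −1.12 (adjusted p = 0.0504, or 0.00483 with DESeq2). The summed level of 14 endothelial markers, all detected in every library, was 181 and 229.5 CPM in WT against 446 and 359.9 CPM in KO at 19 dpp, and 114 to 149.9 CPM in the 4 libraries at 25 dpp. It was highest in the same library as Cldn5, and its part in the Cldn5 values was not tested.

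Occludin (Ocln, chromosome 13, 100496507 to 100552718, minus strand) is a membrane protein of the tight junction strand. It measured 51.6 and 39.0 CPM in WT against 116 and 98.0 CPM in KO at 19 dpp. At 25 dpp the values were 18.8 and 22.2 CPM in WT against 41.1 and 57.0 CPM in KO. The KO libraries were the higher ones at each age, by 2.36-fold (log2 1.24, SE 0.219, adjusted p = 0.0106) and 2.39-fold (log2 1.26, SE 0.220, adjusted p = 0.00204). Ocln fell with age by almost the same amount in WT (−1.14, adjusted p = 0.00373) and in KO (−1.13, adjusted p = 0.0148). The difference between its KO effects at the 2 ages was 0.02 with a 95% interval of −0.69 to 0.72. Its call at 19 dpp was lost without replicate 2 of WT (adjusted p = 0.0518). Its fall in KO was lost without replicate 1 at 19 dpp or either replicate at 25 dpp (adjusted p = 0.0527 to 0.129).

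F11r (chromosome 1, 171437535 to 171464603, plus strand) encodes junctional adhesion molecule A. It measured 177 and 114 CPM in WT against 339 and 301 CPM in KO at 19 dpp, and at 25 dpp 53.2 and 62.4 CPM in WT against 174 and 182 CPM in KO. It ranged 6.38-fold from the lowest to the highest library, and the groups did not overlap at either age. KO was 2.20-fold above WT at 19 dpp (log2 1.14, SE 0.206, adjusted p = 0.0112) and 3.08-fold at 25 dpp (log2 1.62, SE 0.209, adjusted p = 6.71e-04). It fell with age by 1.33 on the log2 scale in WT (adjusted p = 0.00182) and by 0.85 in KO (adjusted p = 0.0286). The fall in KO was lost without any one of the 4 KO libraries (adjusted p = 0.0850 to 0.190).

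Tjp1 (chromosome 7, 65296165 to 65527781, minus strand) encodes the scaffold ZO-1, which many epithelia and endothelia share. It varied least of the 8, 1.79-fold from the lowest to the highest library. It measured 248 and 218 CPM in WT against 300.2 and 299.9 CPM in KO at 19 dpp, and at 25 dpp 168 and 169 CPM in WT against 269.5 and 274 CPM in KO. The KO libraries were above the WT libraries at each age, but the difference at 19 dpp, 0.36 (SE 0.113, adjusted p = 0.0557), missed the threshold. It passed with DESeq2 (adjusted p = 0.00406) and with limma-voom (adjusted p = 0.0441). At 25 dpp Tjp1 was 1.61-fold higher in KO (log2 0.69, SE 0.114, adjusted p = 0.00162). It fell with age in WT (−0.47, adjusted p = 0.00939, or 0.0752 without replicate 1 of WT at 19 dpp) and was at −0.14 in KO (95% interval −0.41 to 0.12, adjusted p = 0.419).

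Gja1 (chromosome 10, 56377330 to 56402513, plus strand) encodes the connexin through which Sertoli cells are coupled to each other and to germ cells. It measured 168 and 187 CPM in WT against 461 and 393 CPM in KO at 19 dpp, and at 25 dpp 84.8 and 109 CPM in WT against 190.2 and 191 CPM in KO. Levels in KO at 25 dpp were thus near those in WT at 19 dpp. KO was above WT at 19 dpp by 2.41-fold (log2 1.27, SE 0.156, adjusted p = 0.00714), and at 25 dpp by 1.97-fold (log2 0.98, SE 0.156, adjusted p = 0.00139). Its fall with age was 0.88 on the log2 scale in WT (−0.88, adjusted p = 0.00279) and 1.16 in KO (−1.16, adjusted p = 0.00764). The call in KO was lost when replicate 1 at 19 dpp was left out (adjusted p = 0.0800), and likewise for replicate 2 at 25 dpp (adjusted p = 0.0534).

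Cdh2 (chromosome 18, 16588877 to 16809246, minus strand) encodes N-cadherin, made by Sertoli cells and germ cells. It followed another course than most members. It measured 78.7 and 78.9 CPM in WT against 115 and 117 CPM in KO at 19 dpp, and at 25 dpp 153 and 189.6 CPM in WT against 107 and 119.5 CPM in KO. WT was thus the lower genotype at 19 dpp and the higher one at 25 dpp, while the 4 KO libraries stayed between 107 and 119.5 CPM. KO over WT at 19 dpp was 0.56 (log2, SE 0.139, adjusted p = 0.0276). At 25 dpp it was −0.60 (SE 0.139, adjusted p = 0.00686). The rise with age in WT was 1.12 (log2, SE 0.140, adjusted p = 8.97e-04), against −0.03 in KO (95% interval −0.36 to 0.29). The difference between its KO effects at the 2 ages was −1.15 (SE 0.196, adjusted p = 0.0107), the only such difference called among the 8 members with TMM scaling, where 11.4% of all genes were called lower and 7.68% higher. With libraries scaled to total counts the 3 calls that involve KO were lost, at 0.48 (adjusted p = 0.0977), −0.14 (adjusted p = 0.513) and −0.62 (adjusted p = 0.0938). The difference between the ages was then called for Cldn11, F11r and Tjp1, where 5549 of 23353 genes were called higher and 1966 lower. The rise at 19 dpp was also lost without any one of the 4 libraries at that age (adjusted p = 0.0951 to 0.158). The fall at 25 dpp was lost without replicate 1 of KO at 25 dpp (log2 −0.50, adjusted p = 0.0658) and in a fit of the 25 dpp libraries alone (log2 −0.47, adjusted p = 0.0633). The difference between the ages was lost without replicate 1 of KO at 19 dpp (adjusted p = 0.0531) or at 25 dpp (adjusted p = 0.0553). The summed level of 10 pachytene spermatocyte markers moved with Cdh2 at 25 dpp, at 11430 and 8607 CPM in WT against 619 and 1099 CPM in KO, but not at 19 dpp, at 812 and 2072 CPM in WT against 86.6 and 125 CPM in KO. The part of these cells in the Cdh2 values, and in those of Cldn3, which was also highest in WT at 25 dpp, was not tested.

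The members were also set against the 20 Sertoli markers, as counts per 1000 Sertoli marker counts of the same library. On this scale Cldn11 lay between 61.2 and 72.2 in all 8 libraries, a 1.18-fold range where its CPM spanned 4.55-fold. Ocln lay between 5.10 and 11.2, F11r between 19.5 and 32.8, and Gja1 between 23.6 and 44.5. These ranges, 2.20-fold, 1.68-fold and 1.89-fold, were each narrower than those of the CPM values, 6.17-fold, 6.38-fold and 5.44-fold. Tjp1, at 44.1 and 43.9 in WT against 29.0 and 32.2 in KO at 19 dpp and at 66.3 and 52.9 in WT against 33.4 and 38 in KO at 25 dpp, was lower in both KO libraries at each age. Cdh2 stood at 60.3 and 59.2 in WT at 25 dpp and at 11.1 to 16.6 in all other libraries. Cldn3 stood at 1.69 and 1.55 in WT at 25 dpp and at 0.251 to 0.614 in the others. Cldn5 stood at 2.83 and 2.12 in WT at 25 dpp and at 0.771 and 1.33 in KO. These 4 members varied more on this scale than in CPM: Cdh2 by 5.44-fold against 2.41-fold, Cldn3 by 6.74-fold against 3.52-fold, Tjp1 by 2.29-fold against 1.79-fold and Cldn5 by 3.67-fold against 3.48-fold.

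**Figure D3:**
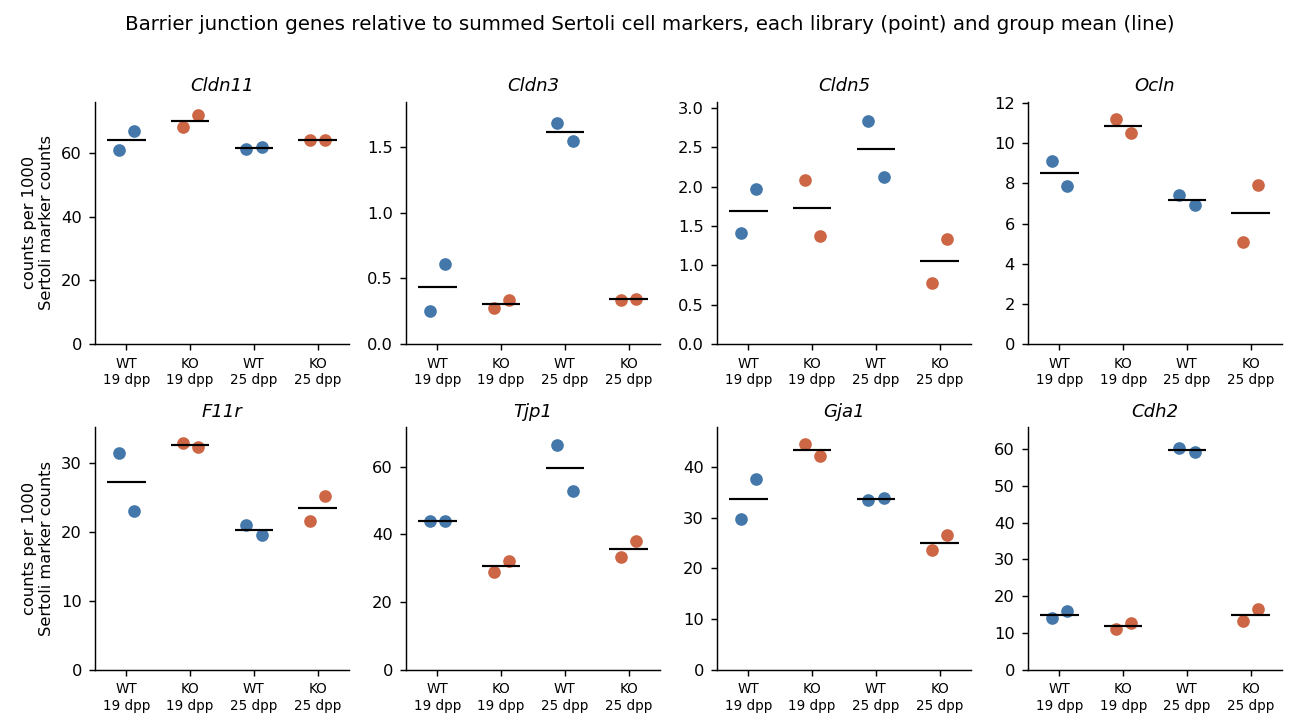
Counts of each junction gene per 1000 counts of the 20 Sertoli markers (vertical axes, linear, each starting at 0), in WT (blue) and KO (orange) at 19 and 25 dpp; points are libraries and lines are group means. Cldn11 stays between 61.2 and 72.2 in all 8 libraries, and Cdh2 and Cldn3 are high only in WT at 25 dpp.

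The same edgeR test with libraries scaled to the summed markers moved the difference of each gene by a median of −0.89 on the log2 scale at 19 dpp and −1.42 at 25 dpp, and the median of all genes was then −0.86 and −1.55. At 19 dpp it called 0 members higher and 0 lower, where 0.321% of all genes were higher and 44% lower. Of the 8 values the highest were Gja1 at 0.36 (adjusted p = 0.152) and Ocln at 0.35 (adjusted p = 0.264), and Tjp1 was at −0.52 (adjusted p = 0.0596). At 25 dpp 0 members were higher and 4 lower, where 1.13% of genes were higher and 69.6% lower. The 4 were Cldn3 (−2.25, adjusted p = 0.00330), Cdh2 (−2.0, adjusted p = 4.23e-04), Cldn5 (−1.24, adjusted p = 0.0214) and Tjp1 (−0.74, adjusted p = 0.0103). Cldn11 was at 0.06, Ocln at −0.14, F11r at 0.21 and Gja1 at −0.43, none of them called. With age in WT Cldn3 (1.91, adjusted p = 0.00967) and Cdh2 (2.0, adjusted p = 0.00130) rose and none fell, where 51% of genes rose and 1.98% fell. In KO Gja1 fell (−0.79, adjusted p = 0.0394), where 2.7% of genes fell. The difference between the KO effects of Cdh2 at the 2 ages was −1.66 (adjusted p = 0.0217), where 9.66% of genes were called lower and 0.766% higher.

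These values rest on the markers chosen. Clu, a secreted chaperone abundant in Sertoli cells, made up 44.7% to 61.2% of the marker sum, with its highest shares in KO at 25 dpp. In a setting added after the data were seen, with Clu left out of the sum, Cldn11 ranged from 111 to 166 per 1000 counts, 1.5-fold, and was called higher in KO at 25 dpp (log2 0.43, adjusted p = 0.0397). Tjp1 was then called lower at 19 dpp (−0.57, adjusted p = 0.0254) and not at 25 dpp (−0.37, adjusted p = 0.0884), and in KO Tjp1 (0.52, adjusted p = 0.0423) and Cdh2 (0.63, adjusted p = 0.0108) rose with age. Cldn3 (−1.88), Cdh2 (−1.64) and Cldn5 (−0.89) stayed called lower at 25 dpp. Of 23353 genes, 72 were higher and 11269 lower in KO at 19 dpp in this setting, and 681 and 14088 at 25 dpp. With age in KO 8564 genes rose and 658 fell. The error of the marker sum itself does not enter these p-values.

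**Figure D4:**
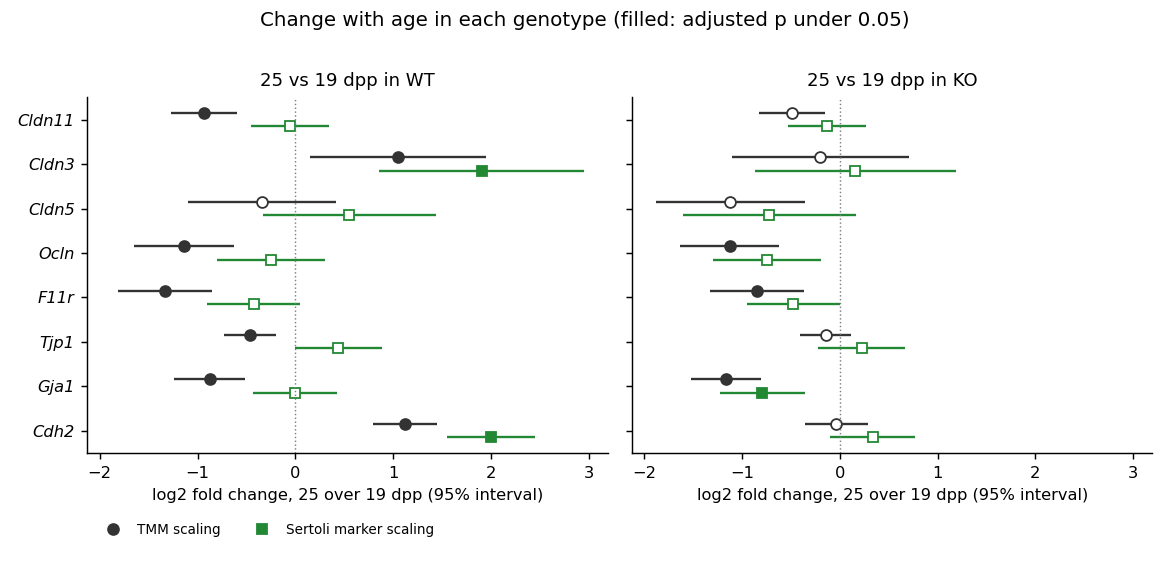
Log2 fold change from 19 to 25 dpp (horizontal axis) with its 95% interval for each member in WT (left) and KO (right), with TMM scaling (black circles) or Sertoli marker scaling (green squares); filled symbols have an edgeR adjusted p under 0.05. In WT, 5 members fall under TMM and Cldn3 and Cdh2 rise under both scalings, while in KO no member rises.

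Compared per kilobase of exon (CPM divided by the length of the GENCODE exons), the levels of the 8 genes differed widely. The length joins all annotated exons of a gene, from 1.259 kb for Cldn3 to 10.257 kb for Gja1. A gene whose main transcripts use only part of it is set too low, so the order holds for this length only. In WT at 19 dpp the order of the group means was Cldn11 (181 ± 4.59 CPM per kb, SD, n = 2), F11r (54.7 ± 16.6), Tjp1 (29.8 ± 2.77), Gja1 (17.3 ± 1.32), Ocln (10.7 ± 2.10), Cdh2 (9.77 ± 0.0177), Cldn5 (6.25 ± 0.918) and Cldn3 (1.77 ± 0.917). Ocln and Cdh2 overlapped in that order, and no other neighbours did. Cldn11 was the highest and Cldn3 the lowest in every group. Cldn11 alone made up 50.4% to 65.2% of the summed level per kilobase of the 8 genes in the 8 libraries. The middle of the order changed between groups. In KO at 19 dpp Gja1 (41.6 ± 4.72) and Tjp1 (38.4 ± 0.0269) overlapped behind F11r (120.2 ± 10.3), and Cdh2 (14.4 ± 0.200) and Cldn5 (12.1 ± 4.42) overlapped below Ocln (25.4 ± 3.02). In WT at 25 dpp F11r (21.7 ± 2.44), Tjp1 (21.6 ± 0.134) and Cdh2 (21.2 ± 3.23) could not be ranked, nor could Cldn5 (4.93 ± 0.192) and Ocln (4.86 ± 0.572). The share of Cdh2 in the summed level was 11.5% and 11.8% in WT at 25 dpp and between 2.20% and 3.65% in the other libraries. In KO at 25 dpp the order was that of WT at 19 dpp with Cdh2 (14.05 ± 1.09) and Ocln (11.6 ± 2.66) exchanged, and those 2 overlapped.

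The likeness of the members' patterns was measured as the root mean square difference of log2(CPM + 1), each gene centred on its mean, over the 8 libraries. Among the members Ocln and F11r were the most alike (0.187), followed by Ocln and Gja1 (0.203), and Cldn3 was closest to Cdh2 (0.232). The added 1 narrows the range of Cldn3, at 1.41 to 4.97 CPM, more than that of the other members. Its distances are therefore less comparable with theirs. Among 10660 other genes with a mean of at least 10 CPM, the closest to Cldn11 were Tmem55a (0.0560) and Snhg18 (0.0579). Those closest to F11r were Sdc4 (0.0662) and Sema5a (0.0686), and those closest to Gja1 were Ddah2 (0.0561) and Sdpr (0.0649). Ocln was closest to Gna14 (0.0820) and Tnni3 (0.102), and Tjp1 to Lpin2 (0.0591) and Lats1 (0.0605). The nearest genes to the other 3 were more distant: Hexa (0.112) and Fdx1 (0.116) for Cldn3, Tbcd (0.156) and Ptprb (0.171) for Cldn5, and Ppp3ca (0.159) and Mrps34 (0.165) for Cdh2. Ptprb, an endothelial phosphatase, is also among the 14 endothelial markers. All these genes were measured in the same libraries, so shared scaling adds to their likeness. The distances are not scaled to a member's own variation, so a member that varied less can have smaller ones. The root mean square of a member's own centred values was 0.317 for Tjp1, 0.369 for Cldn3, 0.399 for Cdh2 and 0.506 for Cldn5. It was 0.735 for Cldn11, 0.768 for Gja1, 0.842 for Ocln and 0.898 for F11r.

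**Figure D5:**
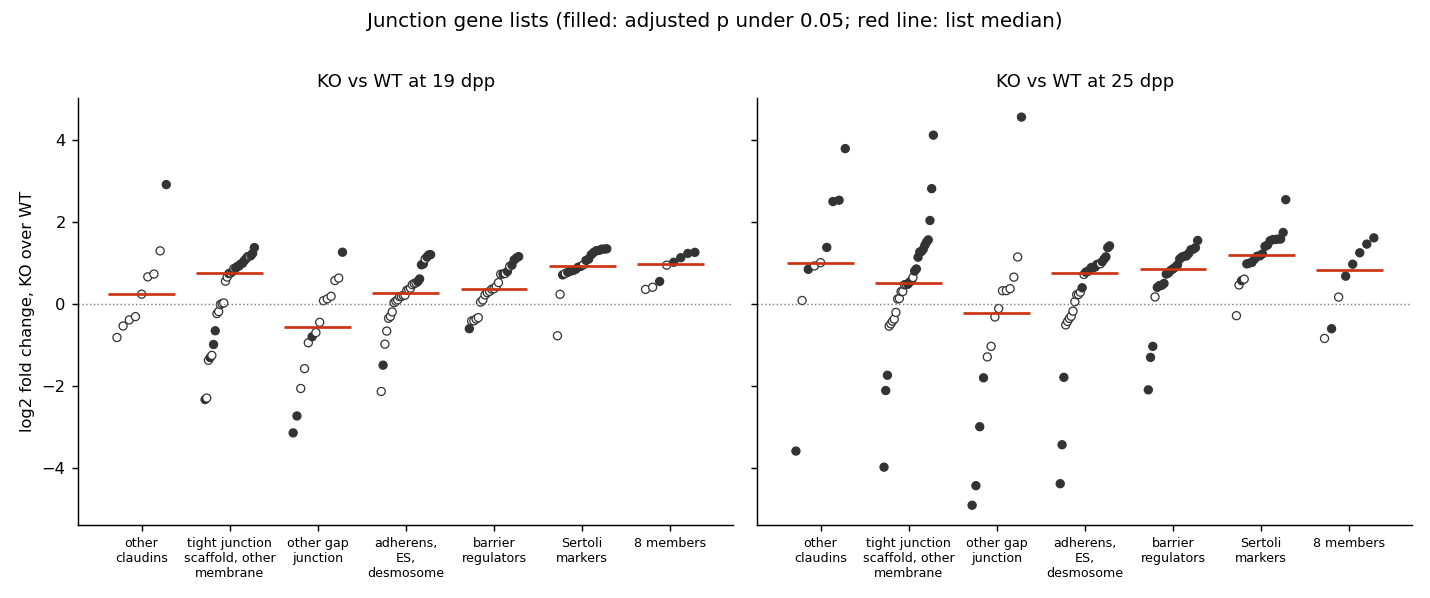
Log2 fold change of KO over WT (vertical axis) for each tested gene of 5 junction lists, the 20 Sertoli markers and the 8 members at 19 dpp (left) and 25 dpp (right); filled points have an edgeR adjusted p under 0.05 and red lines are list medians. The other gap junction genes have medians of −0.56 and −0.21, below 0, and each other list has a positive median at both ages.

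Other genes of the same structures were read from lists of junction genes, whose counts stand beside 8.8% of all genes that rose and 13.2% that fell at 19 dpp, and 26.1% and 37.4% at 25 dpp. Of 22 other claudins 19 were matched and 9 had enough counts to test, of which 1 rose and 0 fell in KO at 19 dpp and 5 rose and 1 fell at 25 dpp. Cldn4, a claudin of many epithelia, measured 0.514 and 0.172 CPM in WT against 2.30 and 2.87 CPM in KO at 19 dpp (log2 2.92, adjusted p = 0.0139), and at 25 dpp 0.191 and 0.292 CPM in WT against 4.43 and 2.34 CPM in KO (log2 3.80, adjusted p = 0.00137). Cldn2, which forms pores for small ions, was higher in KO at 25 dpp (log2 2.51, adjusted p = 0.00292). These claudins were far below Cldn11 in level, and their sum over the list was between 24.6 and 73.9 CPM per library.

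Of 30 tight junction scaffold and other membrane proteins 13 rose and 4 fell in KO at 19 dpp, and 15 rose and 3 fell at 25 dpp, with medians of 0.76 and 0.52. Cgn, the junction protein cingulin, rose at both ages (log2 1.06, adjusted p = 0.00768, and log2 1.57, adjusted p = 3.39e-04), from 321 and 293 to 677 and 606 CPM at 19 dpp. Jam2, a relative of F11r, rose at 25 dpp (log2 1.29, adjusted p = 5.60e-04). In the other direction, Tjp3 (−2.32, adjusted p = 0.00811) and the polarity scaffold Mpp5 (−0.98, adjusted p = 0.00896) were lower in KO at 19 dpp. The polarity protein Pard6a (−2.10, adjusted p = 6.03e-04) and the scaffold Magi2 (−1.73, adjusted p = 6.45e-04) were lower at 25 dpp. Like Cdh2, Pard6a and Magi2 were highest in WT at 25 dpp, at 43.9 and 32.2 CPM and at 33.0 and 26.3 CPM.

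Of 14 other gap junction genes tested, 1 rose and 3 fell in KO at 19 dpp and 1 rose and 4 fell at 25 dpp, with medians of −0.56 and −0.21 against 0 and −0.12 over all genes. Gjc1 was lower in KO at 19 dpp, at 21.0 and 32.1 CPM against 46.4 and 45.3 CPM (log2 −0.79, adjusted p = 0.0385). At 25 dpp Gjc3 was at 0.273 and 0.439 CPM in WT against 7.43 and 9.55 CPM in KO (log2 4.57, adjusted p = 5.86e-04), and Gjd3 was lower in KO (−2.98, adjusted p = 0.00126). Each of these connexins was well below Gja1 in CPM.

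Of 28 genes of adherens junctions, ectoplasmic specializations and desmosomes 7 rose and 1 fell in KO at 19 dpp, and 14 rose and 3 fell at 25 dpp. Pvrl2, the nectin of the Sertoli cell side of the contact with spermatids, measured 113 and 122 CPM in WT against 277 and 244.5 CPM in KO at 19 dpp (log2 1.15, adjusted p = 0.00714). Nectin3, its partner on the spermatid side, measured 41.5 and 78.4 CPM in WT against 21.7 and 21.1 CPM in KO at 19 dpp (−1.48, adjusted p = 0.0288). At 25 dpp the values were 612 and 391 CPM in WT against 38.7 and 54.8 CPM in KO (−3.42, adjusted p = 5.89e-04). The integrin gene Itga6 rose in KO at 19 dpp (1.21, adjusted p = 0.00714). The actin linker Vcl (1.43, adjusted p = 3.92e-04) and Itgb1 (1.16, adjusted p = 8.08e-04) rose at 25 dpp, and Pkp1, a desmosome plaque protein under 4 CPM in every library, fell (−4.37, adjusted p = 0.00261).

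Of 23 barrier regulators tested 6 rose and 1 fell in KO at 19 dpp, and 19 rose and 3 fell at 25 dpp. Gata4, a transcription factor of the somatic cells of the testis, and Mmp2, a matrix protease, rose at 19 dpp (1.08, adjusted p = 0.0125, and 1.16, adjusted p = 0.0127), and Rictor, a subunit of an mTOR complex, at 25 dpp (1.18, adjusted p = 6.74e-04). Tgfbr1, a receptor for TGF-beta, was lower in KO at 19 dpp (−0.59, adjusted p = 0.0172). The actin-binding proteins of the ectoplasmic specialization Rai14 and Fscn1 fell at 25 dpp: Rai14 (−2.09, adjusted p = 3.34e-04), at 689 and 490 CPM in WT against 121 and 157 CPM in KO, and Fscn1 (−1.29, adjusted p = 9.17e-04). Set against the Sertoli markers, 0 genes rose and 9 fell in this list at 19 dpp and 0 rose and 11 fell at 25 dpp. On that scale 9 and 19 of the 30 scaffold genes fell, 11 and 17 of the 28 adherens genes, 5 and 10 of the 14 gap junction genes and 3 and 3 of the 9 claudins, where 44% and 69.6% of all genes fell.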

How the data were processed

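Messenger RNA of whole testes was sequenced in 8 libraries, 4 groups of 2. Trizol extraction, DNase digestion and a stranded mRNA kit were used, per the labels. Per the submitters' processing notes, STAR 2.7.0a, featureCounts 1.5.1 and mm10 were used. Strand setting, annotation and handling of multi-mapping reads are not given in the sources used here. The authors deposited raw counts, 1 file per library, with 54087 genes and 1205 repeat families. The latter, 4.10% to 5.68% of counts, were left out.

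The 8 members were matched by symbol, their GENCODE M21 (GRCm38, the mm10 assembly) coordinates and exon lengths by the same symbol, and promoters by RefSeq symbol. Members, lists and tests were chosen with earlier results of these data known. Named genes were all members, per junction list and age up to 2 genes per direction with the lowest p past the threshold and at least 2 CPM, and 2 nearest genes per member; some genes that this rule names are not reported here. Markers of Sertoli (20), endothelial (14) and 8 other cell types came from general knowledge.

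Counts were fitted over all genes with edgeR 4.0.16 (R 4.3.3), using TMM, filterByExpr on the groups (23353 genes remained), robust quasi-likelihood and a mean per group over the 8 libraries, with 4 residual degrees of freedom. The 5 contrasts used Benjamini-Hochberg adjustment at 0.05. Intervals of 95% use the degrees of freedom after moderation. CPM are counts over TMM-scaled library size. A floor of 3 counts is 0.0811 to 0.126 CPM and covers counting error only; no member was below it. Alternatives were other scalings, filters, DESeq2 1.42.0, limma-voom 3.58.1, a replicate block, only the libraries compared and leaving out each library. With a library left out, its partner is assumed to vary like the other groups. The procedure was tested on simulated data.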

Additional observations from a re-analysis of the deposited data

Results flagged for a closer look

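With TMM scaling Cdh2 was the only member whose KO effect differed between the ages by a test of the difference itself. Its KO over WT difference at 25 dpp minus that at 19 dpp was −1.15 on the log2 scale (SE 0.196, 95% interval −1.61 to −0.70, edgeR adjusted p = 0.0107). Both KO libraries were above both WT libraries at 19 dpp and below them at 25 dpp. The value was −1.66 (adjusted p = 0.0217) with libraries scaled to the Sertoli markers and −0.62 (adjusted p = 0.0938) with total counts. With total counts the difference was called instead for Cldn11 (0.98, adjusted p = 0.0258), F11r (1.03, adjusted p = 0.0426) and Tjp1 (0.87, adjusted p = 0.0171). That scaling moved this difference of each gene by a median of 0.54. Of the 23353 genes, 5549 were then called higher and 1966 lower. Cldn3, the other member highest in WT at 25 dpp, had a difference of −1.25 that was not called (SE 0.548, adjusted p = 0.145), and without replicate 2 of WT at 19 dpp was −1.90 and called (adjusted p = 0.0385).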

How the results depend on the processing

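Of 707 values under alternatives, 574 kept their direction and side of the threshold, 60 lost a call, 29 gained one and 44 changed sign; counts of members are apart from these. At 25 dpp 5 members were higher in KO in every setting except those that scale to Sertoli markers, where 0 were (1 without Clu, a setting chosen after seeing the data). Under that scaling 0 were higher at 19 dpp (0 without Clu, with 1 lower) and 4 lower at 25 dpp (3 without Clu). With age 0 fell in WT (0 without Clu) and 1 in KO (1 without Clu, with 2 higher). Over all genes 75 were higher and 10277 lower at 19 dpp (72 and 11269 without Clu). At 25 dpp 265 genes were higher and 16260 lower (681 and 14088 without Clu). With age 462 genes fell in WT (606 without Clu), and in KO 2479 rose and 631 fell (8564 and 658 without Clu). KO over WT turned, at 19 dpp, for Cdh2 to −0.34 (−0.37 without Clu), Cldn3 to −0.50 (−0.50) and Tjp1 to −0.52 (−0.57), and, at 25 dpp, for Gja1 to −0.43 (−0.061), Tjp1 to −0.74 (−0.37), Cldn5 to −1.24 (−0.89) and, only with Clu, Ocln to −0.14. With age in WT Tjp1 turned to 0.44 (0.32) and Cldn5 to 0.55 (0.46), and in KO Cldn3 to 0.16 (0.46), Tjp1 to 0.22 (0.52), Cdh2 to 0.34 (0.63) and, only without Clu, Cldn11 to 0.18. The difference between the ages turned for Ocln to −0.50 (−0.093) and, only with Clu, for F11r to −0.048, Cldn11 to −0.072 and Tjp1 to −0.21.

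Total-count scaling left 0 members lower at 25 dpp, 1 higher with age in WT, 3 higher (Cldn11, F11r, Tjp1) and 0 lower in the difference between the ages, and turned that of Gja1 to 0.25. It moved the difference of each gene by a median of −0.08 at 19 and 0.47 at 25 dpp, and the calls over all genes from 2054 up and 3091 down to 1284 and 3414 at 19 dpp, and from 6096 and 8744 to 8995 and 7105 at 25 dpp. With age in WT these calls went from 8151 up and 5928 down to 6295 and 9718. In the difference between the ages they went from 1793 and 2671 to 5549 and 1966. DESeq2 called 2 members lower at 25 dpp and 5 lower with age in KO. Over all genes it called 8948 and 3029 lower, against 8744 and 2072 in the main fit. The filter at 5 CPM, which drops Cldn3, gave 1 higher with age in WT and 5 lower in KO. Over the genes it kept the calls were 5118 and 2045, against 8151 and 2072 in the main fit. Fits of only the libraries compared gave 1 and 5 (7461 and 3308 genes), and 0 lower at 25 dpp (8157 genes). No filter gave 1 higher in WT (8553 genes). Values near 0 changed sign: the age difference of the Ocln effect, 0.02, was −0.079 with DESeq2 and with its size factors, −0.015 with the 5 CPM filter and −0.0139 with limma-voom, and the age effect of Cdh2 in KO, −0.03, was 0.0094 with DESeq2, 0.0096 with its size factors and 0.0081 with no filter.

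Leaving out each library in turn, members higher in KO ranged from 0 to 6 at 19 dpp and stayed at 5 at 25 dpp, and members lower from 0 to 2 at 25 dpp. With age, 1 to 2 rose and 4 to 5 fell in WT and 0 to 5 fell in KO (0 when the left-out library was replicate 1 at 19 dpp or replicate 2 at 25 dpp, 1 when it was replicate 1 at 25 dpp). For the difference between the ages 0 to 1 were higher (Cldn11, 0.65, adjusted p = 0.0343 without replicate 2 of WT at 25 dpp) and 0 to 2 lower. Signs turned within the ranges of Cldn3 in KO over WT at 19 dpp (−0.028 to 1.08, lowest without replicate 1 of WT), Cldn5 at 25 dpp (−0.15 to 0.48, lowest without replicate 2 of KO), Cdh2 with age in KO (−0.11 to 0.043) and the Ocln difference between the ages (−0.23 to 0.25). A replicate block changed no call of the members, with 5 higher at 19 dpp and 5 at 25 dpp. It gave 2003 up and 2960 down over all genes at 19 dpp. The log2 differences of replicate 1 minus replicate 2, over 17846 genes, correlated between pairs of groups at −0.14 to 0.53. Over all genes, 55 of 178 counts moved by over 1.5 times. The cause of these changes was not tested.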

Other observations

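The markers of the other cell types gave these values in KO against WT. Over all genes tested 8.8% rose and 13.2% fell at 19 dpp, and 26.1% rose and 37.4% fell at 25 dpp. At 19 dpp 9 of 10 early meiotic prophase and 9 of 10 pachytene markers fell, with medians of −2.12 and −5.13, and 4 of 10 round spermatid markers fell. At 25 dpp 10 of 10 pachytene, 10 of 10 round spermatid and 8 of 8 elongating spermatid markers fell, with medians of −3.22, −6.02 and −11.9, while 2 early meiotic markers rose and 2 fell. Of 10 spermatogonial markers 2 rose and 1 fell at 19 dpp and 9 rose at 25 dpp. Of 14 endothelial markers 5 rose at 19 dpp, and 3 rose and 1 fell at 25 dpp. No Leydig cell marker was called at 19 dpp and 4 of 8 fell at 25 dpp. Of 7 peritubular myoid markers 2 rose at 19 dpp, and 1 rose and 1 fell at 25 dpp. None of the 8 macrophage markers was called at either age, with medians of 0.77 and 0.04.

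The 2 WT libraries at 25 dpp differed in the spermatid markers more than in the members. The summed elongating spermatid markers were at 3383 and 473 CPM and the round spermatid markers at 2472 and 1361 CPM. Cdh2 was at 153 and 189.6 CPM and Cldn3 at 4.28 and 4.97 CPM (157 and 170 counts) in the same libraries. Between the groups, Cdh2, Cldn3 and these 2 sums all had their highest mean in WT at 25 dpp. The part of spermatids in these values was not tested. Leydig markers summed to 93.0 and 460 CPM in WT at 19 dpp, where Cldn3, at 1.41 and 3.05 CPM, also was lower in replicate 1. The pachytene, round spermatid, macrophage, endothelial and early meiotic sums were lower in that library too. Those of Sertoli, myoid, spermatogonial and elongating spermatid markers were higher. In KO the Leydig sum was 476 and 481 CPM at 19 dpp and 33.3 and 71.9 CPM at 25 dpp. Cldn3 lay between 2.48 and 3.15 CPM in the KO libraries of both ages. A link between Cldn3 and Leydig cells was not tested.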
